A study of Mus musculus with 7 samples.

Results

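Dendritic cell (DC) transcripts were read in splenic CD4+CD25+ isolates of aged and young mice. The 7 genes were taken by symbol, as Siglech, Flt3, Xcr1, Clec9a, Zbtb46, Cd209a and Clec10a, from the 25469 genes that carry a symbol and a count in the deposited table. Each symbol matched 1 Ensembl gene, and all 7 passed the filter on low counts. In aged isolates Siglech, Cd209a and Clec9a were lower, Zbtb46 was higher, and Flt3, Xcr1 and Clec10a did not pass the test. Clec9a passed narrowly and was called in 1 of 7 fits that each left out a library. Cd209a passed the filter only through young libraries.

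The isolates were made from wild-type male C57BL/6 mice with a magnetic bead kit for regulatory T cells (Tregs), to compare Tregs of both ages. Labels give the aged mice as 18 months old (3 biological replicates) and the young mice as 8 weeks old (4 biological replicates), with no treatment named for either group, and the study's methods give a different age for the young mice. SMART-Seq cDNA of bulk RNA carries no molecular identifiers, so counting limits given here cover counting error only. Nothing in the labels says whether a replicate is 1 mouse or several pooled mice.

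DCs take up antigen and present it to T cells. Conventional DCs (cDCs) fall into cDC1, which present antigen of dead cells to CD8 T cells, and cDC2, which mainly prime CD4 T cells. Plasmacytoid DCs (pDCs) make type I interferon after viral RNA or DNA is sensed. The receptor tyrosine kinase Flt3 and its ligand maintain DCs in the spleen, and Zbtb46 is a transcription factor of the cDC lineage. Both are also known outside DCs, Flt3 in early progenitors and Zbtb46 in endothelial and erythroid cells.

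Gene counts were 10734234 to 13649310 per library, so that 3 counts were worth 0.210 to 0.302 CPM, a count scaled to library size with TMM factors. No libraries of the same age agreed within sampling noise, so none was taken for a repeat deposit of another. Of 13904 genes tested (edgeR quasi-likelihood test, Benjamini-Hochberg, adjusted p under 0.05), 1362 (9.8%) were higher and 965 (6.94%) lower in aged isolates. The share of calls that were higher was 58.5%, and it was 44.9% of 2720 calls with GC content and length trends removed (tried only after the data were seen). Mitochondrial genes took 5.08% to 10.7% of the gene counts in aged and 2.63% to 3.23% in young libraries. Foxp3, the Treg transcription factor, did not pass the test (log2 fold change 0.21, adjusted p = 0.409), nor did Il2ra, which encodes CD25 (-0.61, adjusted p = 0.0588), or Cd4 (-0.30, adjusted p = 0.117). Of the Foxp3 exon length, 31.5% overlaps other genes.

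The 250 bases before the start of the 3 genes that were lower are shown because these genes moved in the same direction. They were read from RefSeq on GRCm38.p6, which had an entry for 6 of the 7 genes. The Siglech stretch lies at chr7:55767934-55768183 (plus strand), the Cd209a stretch at chr8:3748985-3749234 (minus strand) and the Clec9a stretch at chr6:129408612-129408861 (plus strand). Capitals mark CANNTG, the E-box, a motif bound by helix-loop-helix factors such as Tcf4 of pDCs.
Siglech: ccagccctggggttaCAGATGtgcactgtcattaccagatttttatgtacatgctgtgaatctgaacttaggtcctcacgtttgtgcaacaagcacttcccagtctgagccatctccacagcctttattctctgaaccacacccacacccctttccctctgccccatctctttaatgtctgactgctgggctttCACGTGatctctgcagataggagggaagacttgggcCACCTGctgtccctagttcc
Cd209a: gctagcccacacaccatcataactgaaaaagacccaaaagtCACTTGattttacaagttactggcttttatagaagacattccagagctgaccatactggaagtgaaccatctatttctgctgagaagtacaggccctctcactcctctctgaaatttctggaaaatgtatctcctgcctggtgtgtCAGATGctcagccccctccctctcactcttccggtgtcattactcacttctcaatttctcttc
Clec9a: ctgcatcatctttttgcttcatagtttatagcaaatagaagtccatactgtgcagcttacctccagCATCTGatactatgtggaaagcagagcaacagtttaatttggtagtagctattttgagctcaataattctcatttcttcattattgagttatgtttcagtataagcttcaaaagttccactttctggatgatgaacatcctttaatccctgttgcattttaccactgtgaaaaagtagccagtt

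The E-box was present 3 times in the Siglech stretch, 2 times in that of Cd209a and 1 time in that of Clec9a. It was present in 66.2% of 32851 RefSeq stretches of the same length, so its presence sets none of these genes apart. The same stretches of Xcr1, Flt3 and Zbtb46, which were not called lower, held 1, 1 and 5. The RefSeq starts used for Zbtb46 and Siglech lie inside the GENCODE genes, that of Siglech by a few bases. Also searched on both strands were TGANTCA (AP-1 and BATF sites, in 6.75% of all stretches), GAGGAA (PU.1 sites, 23.3%), GGAA with GAAA after 2 bases (2.30%) and GAAA with GAAA after 2 bases (2.98%). Only TGANTCA was found, 1 time, and in Zbtb46 alone of the 6.

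Siglech (ENSMUSG00000051504, chr7:55768178-55778925, plus strand, GENCODE M21 on GRCm38) encodes a surface receptor of mouse pDCs from the family of sialic acid binding lectins. It had 14, 15 and 26 counts in the aged replicates 1 to 3, against 41, 68, 84 and 90 in the young replicates 1 to 4. In CPM on the TMM scale these were 1.22, 1.51 and 2.43 in aged and 3.58, 4.77, 6.63 and 6.45 in young isolates. Every aged library lay below every young library. The mean was 1.72 ± 0.632 in aged (SD, n = 3) and 5.36 ± 1.45 CPM in young isolates (SD, n = 4), which is 3.11-fold lower. In the fit, Siglech was lower by a log2 fold change of -1.64 (its standard error, SE, was 0.332, adjusted p = 0.0140), and each fit that left out a library called it lower. As these are bulk libraries, fewer cells of a type and less RNA per cell cannot be told apart, here and for each gene that follows.

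Cd209a (ENSMUSG00000031494, chr8:3743397-3748984, minus strand), a C-type lectin of cDC2 and of some monocytes, had the largest difference of the 7. Aged replicates 1 to 3 held 0, 10 and 6 counts, and young replicates 1 to 4 held 48, 61, 112 and 65. In CPM the aged values were 0, 1.01 and 0.562 and the young values 4.20, 4.27, 8.85 and 4.66, with no overlap. For aged replicate 1, a count of 0 allows up to 0.262 CPM. The aged mean of 0.523 ± 0.505 CPM (SD, n = 3) was 10.5-fold lower than the young mean of 5.49 ± 2.24 CPM (SD, n = 4). The log2 fold change was -3.41 (SE 0.679, adjusted p = 0.0131), and it ranged from -4.28 to -2.80 with each library left out, called lower each time. Young replicate 3 stood above the other young libraries, and without it the log2 fold change was -3.08 (adjusted p = 0.0364).

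Clec10a (ENSMUSG00000000318, chr11:70156197-70170834, plus strand), a galactose binding lectin also of cDC2 and macrophages, was near the limit of counting. It had 3, 2 and 7 counts in the aged replicates 1 to 3, against 7, 16, 34 and 17 in the young replicates 1 to 4. The largest aged value, 0.655 CPM, was above the smallest young value, 0.612 CPM. Means were 0.373 ± 0.246 in aged (SD, n = 3) and 1.41 ± 0.891 CPM in young isolates (SD, n = 4). The log2 fold change of -1.89 (SE 0.636, adjusted p = 0.0766) did not pass the test, here or in any of the 13 alternatives in which the gene was kept. Clec10a was kept in 4 of 7 fits without a library. In these its log2 fold change ranged from -2.54 (without aged replicate 3) to -1.61 (without aged replicate 2). Of its 50-base stretches, 9.02% occur in other transcripts, mainly those of its near copy Mgl2, so its count is uncertain. Cd209a and Clec10a passed the filter on low counts only through young libraries, and had to be higher there to be tested.

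Clec9a (ENSMUSG00000046080, chr6:129408862-129424763, plus strand), a receptor for dead cells on cDC1, had 11, 12 and 43 counts in aged replicates 1 to 3. In young replicates 1 to 4 it had 59, 85, 72 and 125. In CPM these were 0.961, 1.21 and 4.02 in aged and 5.16, 5.96, 5.69 and 8.96 in young isolates. The groups did not overlap, and aged replicate 3 stood nearer to the young libraries than to the other aged ones. The mean was 2.06 ± 1.70 in aged (SD, n = 3) and 6.44 ± 1.71 CPM in young isolates (SD, n = 4). The log2 fold change of -1.64 (SE 0.477, adjusted p = 0.0490) passed the test narrowly. It was called in 8 of 17 alternatives and in 1 of 7 fits that each left out a library, the 1 without aged replicate 3 (-2.57, adjusted p = 0.00825). In the other 6 the adjusted p reached 0.124. Of its exon length, 5.59% overlaps Clec1b.

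Xcr1 (ENSMUSG00000060509, chr9:123852315-123862029, minus strand) encodes the cDC1 receptor for the chemokine Xcl1. Aged replicates 1 to 3 had 20, 11 and 42 counts and young replicates 1 to 4 had 65, 37, 54 and 88. The CPM were 1.75, 1.11 and 3.93 in aged and 5.68, 2.59, 4.27 and 6.31 in young isolates. Aged replicate 3 again was the highest aged library and lay within the young range. Means of 2.26 ± 1.48 (SD, n = 3) and 4.71 ± 1.65 CPM (SD, n = 4) gave a log2 fold change of -1.05 (SE 0.461, adjusted p = 0.154). No alternative called it, with adjusted p-values from 0.0598 to 0.331. With each library left out, its log2 fold change ranged from -1.70 (without aged replicate 3) to -0.73 (without aged replicate 2).

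Flt3 (ENSMUSG00000042817, chr5:147330741-147400489, minus strand) had 138, 143 and 184 counts in aged replicates 1 to 3. Young replicates 1 to 4 had 133, 247, 201 and 252. Its CPM of 12.1, 14.4 and 17.2 in aged lay inside the young range of 11.6 to 18.1. The log2 fold change was -0.11 (SE 0.190, adjusted p = 0.727), with means of 14.6 ± 2.58 (SD, n = 3) and 15.7 ± 2.88 CPM (SD, n = 4). It was 0.0034 (adjusted p = 0.992) without aged replicate 1.

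Zbtb46 (ENSMUSG00000027583, chr2:181387762-181459426, minus strand) went the other way. It had 129, 120 and 158 counts in the aged replicates 1 to 3, against 72, 70, 101 and 99 in the young replicates 1 to 4. The CPM of 11.3, 12.1 and 14.8 in aged isolates all lay above the 6.29, 4.91, 7.98 and 7.10 of young isolates. The mean was 12.7 ± 1.84 in aged (SD, n = 3) and 6.57 ± 1.30 CPM in young isolates (SD, n = 4), which is 1.94-fold higher. The log2 fold change was 0.95 (SE 0.198, adjusted p = 0.0154), but leaving out aged replicate 3 gave 0.83 (adjusted p = 0.0600), which was not called.

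**Figure D1:**
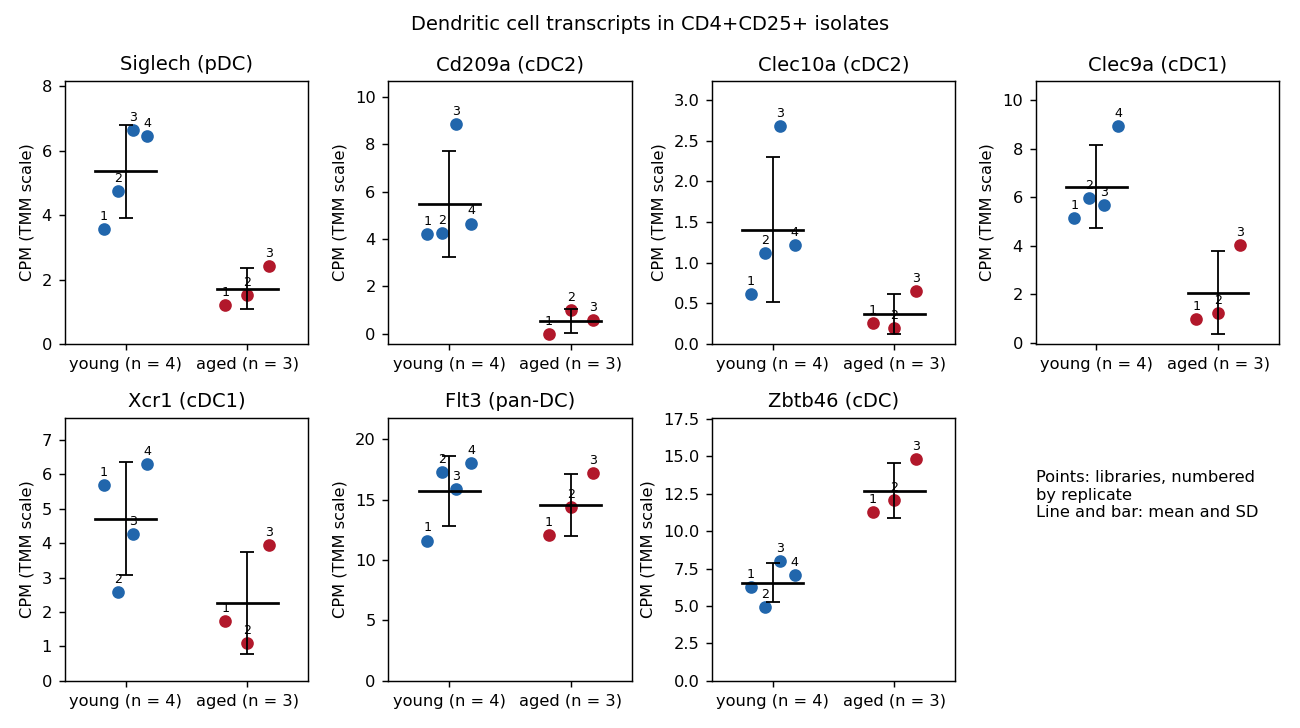
CPM (TMM scale, linear axes from 0) of the 7 DC genes in each library, numbered by replicate, with the mean and SD of each age. Aged libraries lie below all young libraries for Siglech, Cd209a and Clec9a and above them for Zbtb46, and overlap them for Clec10a, Xcr1 and Flt3.

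Of the 7 genes, 3 were called lower, 1 was called higher and 3 were not called. These shares are a description, because Cd209a and Clec10a were tested only through the young libraries. Without them 2 of 5 were lower and 1 was higher, with a median log2 fold change of -1.05. Over all genes tested 6.94% were called lower and 9.8% higher. Every aged library was below every young library in 3 of the 7, against 14.4% of all genes tested, and above in 1 of the 7, against 15.5%. Without Cd209a and Clec10a these counts were 2 and 1 of 5. For the 7 the median was -1.64, beside 0.02 over all genes tested. In an exact permutation test of log2 CPM for each gene (two-sided, all 35 assignments), Siglech, Cd209a, Clec9a and Zbtb46 had p = 0.0571, the smallest that 3 against 4 libraries allow. Xcr1 and Clec10a had p = 0.114 and Flt3 p = 0.571 in the same permutation test.

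**Figure D2:**
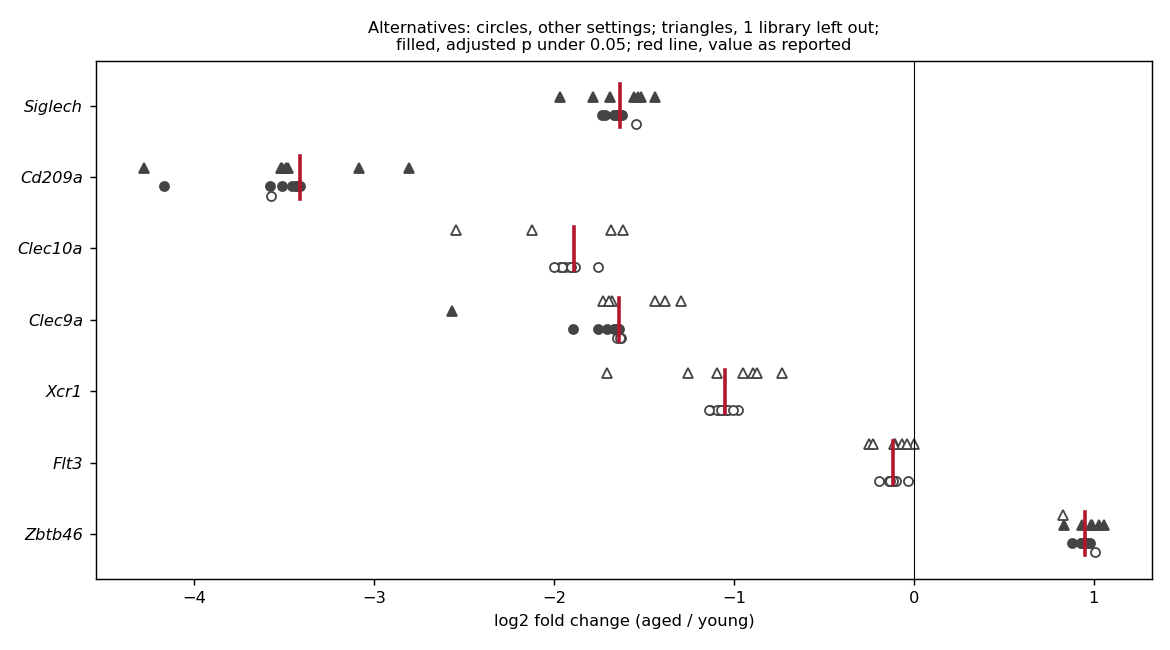
Log2 fold change (aged over young) of each DC gene under the alternatives. Circles are other settings, triangles are fits without 1 library, filled symbols have an adjusted p under 0.05, and red lines mark the values as reported. Siglech and Cd209a are called in each fit without 1 library, Clec9a in 1 of 7, and Clec10a, Xcr1 and Flt3 in none.

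Levels were compared between genes only per kilobase (kb) of exon. In aged isolates Flt3 was highest at 2.36 ± 0.418 CPM per kb, followed by Zbtb46 at 1.49 ± 0.216 and Clec9a at 0.627 ± 0.517 CPM per kb (SD, n = 3). Neither Flt3 and Zbtb46 nor Zbtb46 and Clec9a overlapped. Then came Siglech at 0.509, Xcr1 at 0.508, Cd209a at 0.330 and Clec10a at 0.129 CPM per kb, and from Clec9a down each overlapped the next. In young isolates Cd209a was highest at 3.47 ± 1.42 CPM per kb, then Flt3 at 2.55 ± 0.466 and Clec9a at 1.96 ± 0.520 CPM per kb (SD, n = 4). Siglech at 1.58, Xcr1 at 1.06, Zbtb46 at 0.772 and Clec10a at 0.486 CPM per kb followed, and every neighbouring pair in this order overlapped.

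The 7 genes were then taken as shares of their summed level in each library. Flt3 and Zbtb46 made up 40.5% ± 4.77 and 25.9% ± 4.05 of the summed CPM per kb in aged isolates (SD, n = 3), and 21.8% ± 4.15 and 6.56% ± 0.952 in young isolates (SD, n = 4). Cd209a made up 5.33% ± 5.81 (SD, n = 3) and 28.7% ± 6.70 (SD, n = 4). Siglech made up 8.45% ± 0.538 (SD, n = 3) and 13.2% ± 1.37 (SD, n = 4). Xcr1 made up 8.18% and 9.14%, with overlapping libraries. The shares add to a whole in each library, so a lower share of 1 gene raises the others, and they were not tested.

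**Figure D3:**
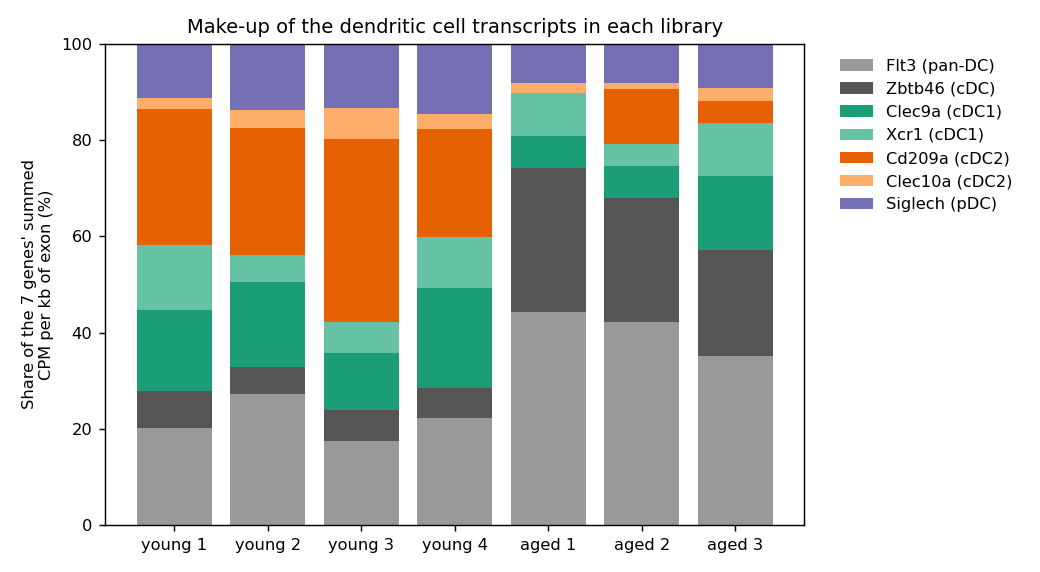
Share (%) of each DC gene in the summed CPM per kb of exon of the 7 genes, 1 bar per library. Flt3 and Zbtb46 take the larger part in the 3 aged libraries, and Cd209a takes 22.3% to 38.1% of the young bars and 0% to 11.5% of the aged ones.

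The patterns over the 7 libraries were compared by the root mean square difference of centred log2 CPM. Between the genes, Siglech was nearest to Clec10a (0.35) and Clec9a (0.39), and Xcr1 to Clec9a (0.55). Zbtb46 and Cd209a were farthest apart (2.27). Among all other genes tested, Siglech was nearest to Skint3 (0.17), AF067061 (0.21) and Sash1 (0.25), with 197 genes within 0.5. Clec9a was nearest to Ppfia4 (0.32), Skint3 (0.32) and Adgre4 (0.33), with 24 genes within 0.5. Xcr1 was nearest to Klri1, Rpl39l and Zfp69 (0.29 to 0.31). Zbtb46 was nearest to Eme2 (0.11), A730011C13Rik (0.13) and Gfpt2 (0.14). Flt3, which varied little, was nearest to Tmem86a, Erp29 and Mrpl52 (0.05 to 0.08) and had 10142 genes within 0.5. This is a description over 7 libraries that share an age difference. Cd209a and Clec10a had under 10 counts in some libraries, so they were matched to no genes outside the 7 and their distances within the 7 rest on few counts. Skint3 and AF067061 also had few counts, with aged means of 0.188 and 0.190 CPM, under the level of 3 counts.

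A wider list of 50 DC genes, chosen by known roles but with earlier results of these data known, was read in the same fit. Its shares are therefore a description. Of the 43 tested, 5 were higher, 9 were lower and 29 were not called, with a median log2 fold change of -0.20, beside 0.02 over all genes tested. Higher calls were 11.6% of the list, near the 9.8% of all genes tested, and lower calls were 20.9%, against 6.94%. The lower calls include Cd209d, which was tested only through young libraries, and 8 of 41 were lower without it and Flt3l. Many genes of this list are also used by B or T cells, so a level in the isolate is not specific to DCs.

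Of 11 other pDC genes tested, Ccr9, Spib and Zeb2 were lower and Runx2 was higher, beside 6.94% lower and 9.8% higher over all genes tested. DESeq2, counted over all 14 listed pDC genes and so also over those edgeR did not test, called 6 lower. Of the 11, limma voom called 2 lower, and 5 were lower at an unadjusted p under 0.05. Each of these gave 1 higher. Ccr9, a gut homing receptor also of T cells, had 5.85, 5.54 and 3.65 CPM in aged and 21.5, 18.8, 15.2 and 19.4 CPM in young replicates (log2 fold change -1.90, adjusted p = 0.00125), and 21.5% of its exon length overlaps other genes. Spib, a transcription factor of pDCs and B cells, was 87.8 ± 27.4 in aged (SD, n = 3) and 206 ± 43.3 CPM in young isolates (SD, n = 4) (-1.23, adjusted p = 0.0137). Zeb2, a repressor in pDC and myeloid cells, had a log2 fold change of -0.74 (adjusted p = 0.0433) and was called in 8 of 17 alternatives and 1 of 7 fits without a library. Runx2, which guides pDCs out of the bone marrow and is also used by T cells, was 39.2 ± 9.09 in aged (SD, n = 3) and 18.1 ± 2.21 CPM in young isolates (SD, n = 4) (1.12, adjusted p = 0.00496). Tcf4, the defining pDC transcription factor, did not pass the test (-0.04, adjusted p = 0.888), nor did Irf7 (0.51, adjusted p = 0.453) and Ly6d (-0.55, adjusted p = 0.118), which DESeq2 called lower. Cd300c, not tested, had 2, 0 and 1 counts in aged and 8, 14, 12 and 8 in young replicates, at least 2.84-fold lower against a limit of 3 counts per library.

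Of 6 other cDC2 genes tested, 3 were lower and none was higher in edgeR, with none higher at an unadjusted p under 0.05 or in DESeq2 and limma voom. Lower were 4 at an unadjusted p under 0.05, 4 in DESeq2, which added Klf4 (-1.01, adjusted p = 0.122 in edgeR), and 3 in limma voom. Over all genes tested 6.94% were lower and 9.8% higher. Cd209d, a neighbour of Cd209a in the same lectin family, had 0, 3 and 1 counts in aged and 15, 18, 10 and 18 in young replicates, at least 4.13-fold lower (adjusted p = 0.0158), and of 7 fits without a library it was called in 3, not called in the 1 without aged replicate 3, and not tested in the other 3. It reached the filter level in no aged library, so it was tested only because it was high in young ones, and without it 2 of 5 were lower. Clec4a1, also a lectin, was 2.68 ± 0.513 in aged (SD, n = 3) and 5.13 ± 0.737 CPM in young isolates (SD, n = 4) (-0.93, adjusted p = 0.0265). It lost the call in 5 of 7 fits without a library. Dtx1, a Notch target also of T and B cells, was 129.9 ± 12.5 CPM (SD, n = 3) and 191 ± 20.0 CPM (SD, n = 4) (-0.56, adjusted p = 0.0163), and was not called without young replicate 4. Irf4 (0.10, adjusted p = 0.691) and Sirpa (-0.22, adjusted p = 0.302) did not pass the test. Clec4a4, not tested, had 0, 2 and 5 counts in aged and 10, 9, 20 and 11 in young replicates.

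Of 8 other cDC1 genes, all tested, edgeR called 0 and limma voom 0, while DESeq2 called 1 lower and 2 had an unadjusted p under 0.05, both lower. Over all genes tested edgeR called 6.94% lower and 9.8% higher, so 0 of 8 is near the background. Wdfy4, needed for cross-presentation, was 140 ± 48.1 in aged (SD, n = 3) and 220 ± 44.2 CPM in young isolates (SD, n = 4) (-0.65, adjusted p = 0.0969). Irf8, the cDC1 and pDC transcription factor also of B cells, had -0.15 (adjusted p = 0.616), Naaa -0.33 (adjusted p = 0.444) and Batf3, another cDC1 factor, 0.19 (adjusted p = 0.536). The cDC1 sum of Xcr1 and Clec9a was 2.71, 2.32 and 7.95 CPM in aged replicates 1 to 3, and the sum of these 8 genes was 255, 277 and 424 CPM. Among the aged libraries, both sums were highest in replicate 3.

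Among 8 genes shared by cDCs, 2 were lower and none was higher in edgeR, beside 6.94% and 9.8% of all genes tested. DESeq2, edgeR without the filter and an unadjusted p under 0.05 each gave 4 lower, limma voom gave 2, and none of these gave a higher one. Kit, the stem cell factor receptor, was 11.7 ± 3.08 in aged (SD, n = 3) and 29.3 ± 5.43 CPM in young isolates (SD, n = 4) (-1.32, adjusted p = 0.00604). Kmo, an enzyme of tryptophan breakdown, was 16.1 ± 5.45 CPM (SD, n = 3) and 32.7 ± 5.73 CPM (SD, n = 4) (-1.02, adjusted p = 0.0223), and was not called without aged replicate 2, young replicate 1 or young replicate 4. Itgax, which encodes CD11c, had -0.72 (adjusted p = 0.0592). Nr4a3 (-0.67, adjusted p = 0.0663), Ciita (-0.40, adjusted p = 0.345) and Dpp4 (-0.20, adjusted p = 0.202) did not pass the test.

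Of 8 genes of mature DCs tested, 4 were higher and 1 was lower, beside 9.8% and 6.94% of all genes tested. Their median log2 fold change was 0.58, beside 0.02. Fscn1, an actin bundling protein, had 76.0, 63.0 and 68.6 CPM in aged and 15.8, 16.9, 14.0 and 21.6 CPM in young replicates (2.02, adjusted p = 0.000362). Cacnb3, a calcium channel subunit, was 31.8 ± 5.25 CPM (SD, n = 3) and 7.92 ± 2.57 CPM (SD, n = 4) (2.00, adjusted p = 0.00159). The chemokine Ccl22 was 11.8 ± 0.182 CPM (SD, n = 3) and 4.52 ± 0.565 CPM (SD, n = 4) (1.38, adjusted p = 0.00147). Cd86, a costimulatory ligand, was 50.9 ± 1.09 CPM (SD, n = 3) and 29.9 ± 4.61 CPM (SD, n = 4) (0.77, adjusted p = 0.00606). Ccr7, the lymph node homing receptor of mature DCs and of T cells, was lower (-0.77, adjusted p = 0.0213), but not without aged replicate 2, aged replicate 3 or young replicate 1. Cd83 did not pass the test (0.40, adjusted p = 0.131).

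Of the ligands, Flt3l is not given a value, because the gene that carries this symbol in the deposited table (ENSMUSG00000089989) is named Gm45713 in GENCODE M21 and overlaps the gene named Flt3l there. It counts among the 29 not called, and without it the median of the wider list was again -0.20. Xcl1, the Xcr1 ligand made by T and NK cells, had 1.20 (adjusted p = 0.0696). It was called higher in 1 of 17 alternatives, DESeq2.

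**Figure D4:**
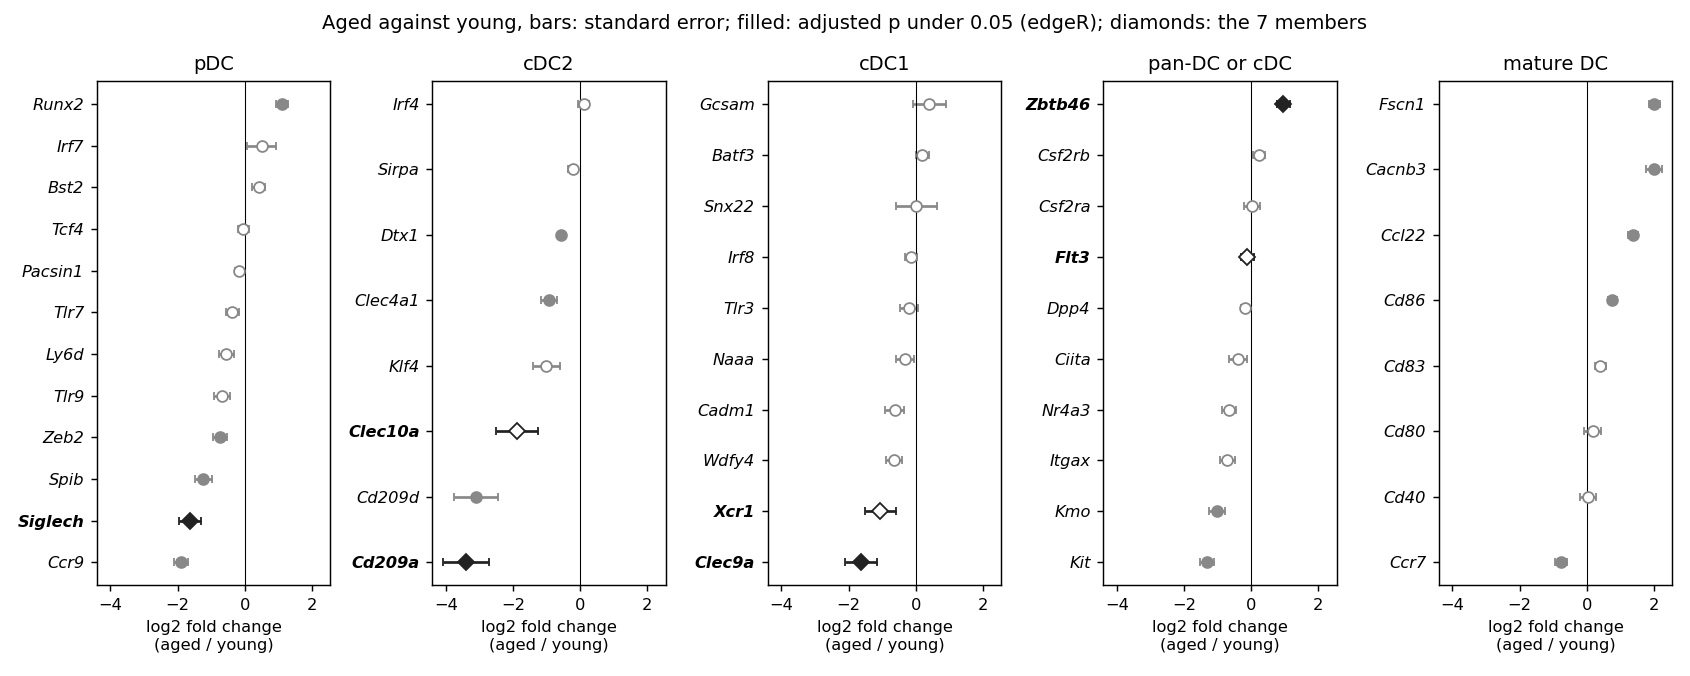
Log2 fold change (aged over young) with its standard error for each tested DC gene, by subset. Diamonds are the 7 genes, circles the wider list, and filled symbols have an adjusted p under 0.05. Among pDC genes Siglech, Ccr9, Spib and Zeb2 lie below 0 and Runx2 lies above 0. Among cDC2 genes the called Cd209a, Cd209d, Clec4a1 and Dtx1 lie below 0, and Irf4, not called, lies above 0. Cd209a and Cd209d were tested only through young libraries, so their direction is no support. Of the mature DC genes, Fscn1, Cacnb3, Ccl22 and Cd86 lie above 0 and Ccr7 lies below 0.

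Markers of other cells were summed in each library, since a bead isolate can hold them. Counts of called markers stand beside 9.8% higher and 6.94% lower over all genes tested, and 1 higher call in a list of 8 to 12 genes (8.33% to 12.5%) is near the first of these shares. The sum of 10 B cell genes was 1107, 1579 and 2068 CPM in aged replicates 1 to 3, and 1580 to 2490 CPM in young libraries. Among the aged libraries alone, this sum was also highest in replicate 3. EdgeR called 0 of the 10, with 4 lower at an unadjusted p under 0.05, 3 called lower by DESeq2 and 1 by limma voom. Ms4a1, which encodes CD20, was 137, 154 and 220 CPM in aged replicates and 227 to 337 CPM in young ones (-0.65, adjusted p = 0.0562). The sum of 10 monocyte genes was 316 to 617 CPM in aged and 405 to 514 CPM in young libraries, with Cd14 higher and Csf1r, F13a1 and Treml4 lower. Csf1r, the receptor for macrophage growth factor, was 33.1 to 54.4 CPM in aged and 88.0 to 95.0 CPM in young libraries. The sum of 12 red pulp macrophage genes was 363 to 604 CPM and 447 to 532 CPM, with 1 higher and 3 lower. That of 4 marginal zone macrophage genes was 12.1 to 33.8 CPM and 25.9 to 37.4 CPM, with 0 called by edgeR or limma voom, 1 lower by DESeq2 and 1 lower at an unadjusted p under 0.05.

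Sums of 4 of the 13 marker lists did not overlap between the ages. Over single genes tested, every aged library was below every young library in 14.4% and above in 15.5%. The count of lists is therefore a description. Progenitor genes summed to 184 to 204 CPM in aged and 247 to 289 CPM in young libraries, with Kit and Myb lower of 5 tested. Endothelial genes summed to 118 to 132 CPM and 172 to 196 CPM, most of it from Pecam1, which was lower, while Plvap was higher. NK cell genes summed to 20.1 to 35.21 CPM and 35.25 to 63.9 CPM, with 1 of 6 lower. Platelet genes summed to 21.1 to 41.6 CPM and 8.62 to 18.0 CPM, with 2 of 5 tested higher. Neutrophil genes summed to 657 to 4889 CPM and 298 to 933 CPM, with 4 of 10 higher (5 in DESeq2, 3 in limma voom, 7 in edgeR without the filter and 8 at an unadjusted p under 0.05). Plasma cell genes (1 of 8 higher) summed to 888 to 1438 CPM and 420 to 2134 CPM. Erythroid and CD8 T cell genes overlapped between the ages, and none of these 10 passed edgeR, DESeq2, limma voom or an unadjusted p of 0.05. The 8 Treg genes summed to 3565 to 4065 CPM in aged and 2856 to 4121 CPM in young libraries, with Cd3e higher in edgeR, DESeq2 and limma voom but not in edgeR without the filter. Il2ra was called lower by DESeq2, limma voom and edgeR without the filter, and Cd4 by DESeq2. No list had a marker at 0 throughout an age. The part of these cells in the DC results was not tested.

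**Figure D5:**
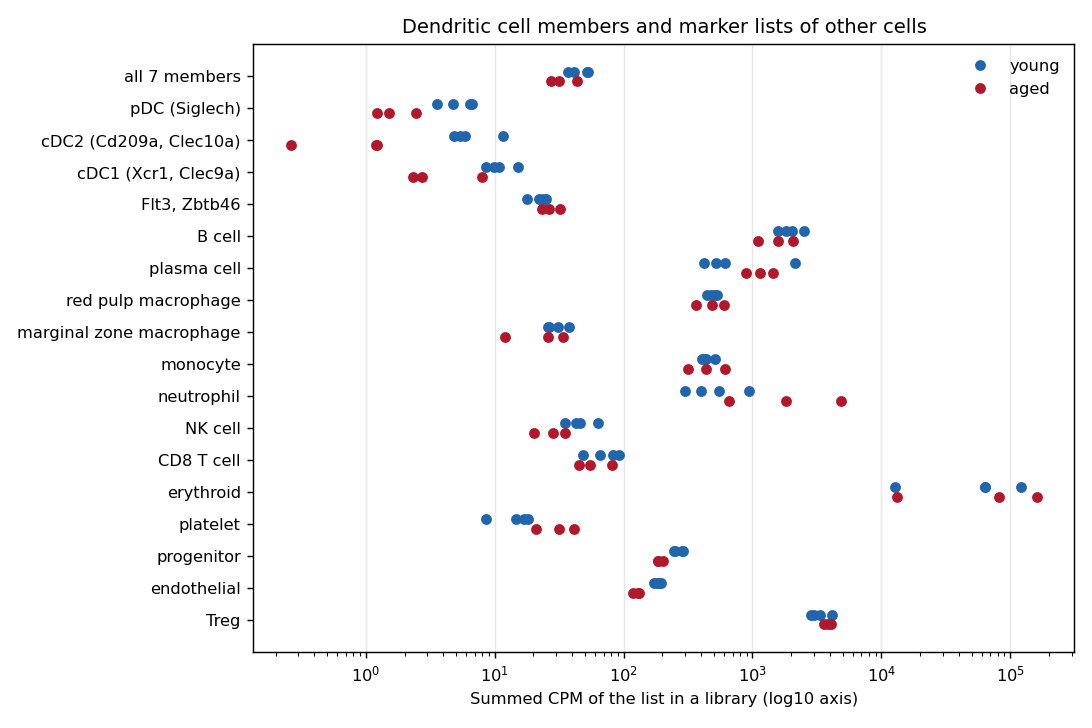
Summed CPM (log10 axis) of the DC genes, all together and by subset, and of marker lists of other cells, 1 point per library. Sums of Siglech alone (pDC), of Cd209a with Clec10a (cDC2) and of Xcr1 with Clec9a (cDC1) lie lower in aged libraries with no overlap, while the sum of all 7 (27.5 to 43.6 CPM aged, 37.1 to 52.8 CPM young) and the B cell, monocyte and macrophage sums overlap. Over single genes tested, every aged library was below every young library in 14.4%. Both genes of the cDC2 sum were tested only through young libraries. The cDC1 sums come close, at 7.95 CPM in aged replicate 3 and 8.55 CPM in young replicate 2. Wider sums are not drawn.

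Summed over the wider list, the pDC genes (519 to 699 CPM in aged, 619 to 841 CPM in young libraries), the cDC1 genes (255 to 424 and 334 to 510 CPM) and the mature DC genes (424 to 459 and 347 to 441 CPM) overlapped between the ages. The cDC2 genes (262 to 331 and 343 to 401 CPM), the genes shared by cDCs (235 to 283 and 324 to 366 CPM) and the whole list (1768 to 2153 and 2174 to 2558 CPM) did not overlap and were lower in aged libraries. Over single genes tested, every aged library was below every young library in 14.4%. The sums are led by the most abundant genes, such as Dtx1 and Irf4 for cDC2.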

How the data were processed

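The authors deposited read counts per Ensembl gene for each of the 7 libraries, laid out as HTSeq-count writes them and named for union counting that ignores strand. The deposited table of the series holds signal values, which the authors made by dividing each count by 1 size factor per library, and the authors' own fold changes and p-values, which were not used. It gave the gene symbols. The submitters' processing notes name genome build mm10, and the aligner and annotation are not given in the sources used here. Without strand, overlapping genes share reads. Reads not assigned to a single gene (13.1% to 20.9%) were left out.

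The count fit used edgeR 4.0.16 under R 4.3.3 (TMM, quasi-likelihood, filterByExpr by group, all 7 libraries, no covariate), with Benjamini-Hochberg adjustment over 13904 genes and an adjusted p under 0.05. Standard errors (SE) were derived from log2 fold change and F statistic. The study's methods name limma. Because the values are counts, edgeR was used and limma 3.58.1 (voom) and DESeq2 1.42.0 were alternatives. The fit was tested on simulated data. Coordinates and exon lengths are from GENCODE M21.

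The 7 genes and all lists were chosen with earlier results of these data known. Named genes were the 7, the called genes of the wider list with up to 3 of its most abundant genes per subset, and the 3 nearest genes by pattern. Tcf4, Batf3, Itgax, Klf4, Cd300c, Clec4a4, and Ms4a1 and Csf1r of the marker lists, were named after their values were seen. Folds against a group at or under 3 counts per library are lower bounds. Alternatives were other tools, scalings and filters, a fold threshold, leaving out each library, and a block for the replicate number. Thinning to the smallest library and removal of GC content and length trends were chosen after seeing the data.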

Additional observations from a re-analysis of the deposited data

Results flagged for a closer look

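Cd209a had 8.85 CPM in young replicate 3 and 4.20, 4.27 and 4.66 CPM in young replicates 1, 2 and 4. The gap from young replicate 3 to its nearest neighbour was 0.900 of the range of the young libraries, above Dixon's critical value for 4 samples. Chance alone gives such a gap in about 1 of 20 groups, and the other 6 genes stayed below it in the young libraries. Clec10a, the other cDC2 gene, was also highest in young replicate 3 (2.69 CPM), with a ratio of 0.707.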

How the results depend on the processing

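Siglech was called lower in 16 of 17 alternatives, Cd209a in 15 of 16 and Clec9a in 8 of 17, and Zbtb46 was called higher in 15 of 17. Flt3, Xcr1 and Clec10a were called in none. The sign held in all alternatives for each gene but Flt3, whose log2 fold change ranged from -0.25 (without aged replicate 3) to 0.0034 (without aged replicate 1). With at least 10 counts in every library, 1 of the 7 genes (Siglech) was lower, because Cd209a was not tested and Clec9a had an adjusted p of 0.0501. DESeq2 called 16 of the 50 genes of the wider list lower, against 9 of the 43 tested in edgeR. Over all genes it called 1345 lower of 17036 with an adjusted p, against 965 of 13904. When a log2 fold change of 1 or more in size was required too, 1016 genes passed (757 higher and 259 lower), 0 of the 7 genes were higher and 3 lower, and 4 of the wider list were higher and 5 lower. With each library left out, 1237 (without young replicate 4) to 3058 (without aged replicate 1) genes were called. Of the 7 genes, 0 (without aged replicate 3) to 1 were higher and 2 to 3 lower, and of the wider list 5 to 6 were higher and 4 (without young replicate 1) to 10 lower. The cause was not tested.

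Same-numbered aged and young libraries did not deviate together (correlations of -0.091, -0.292 and -0.138), so they share only a number. With this number as a replicate block, 292 genes were called, 0 of the 7 genes were higher and 0 lower, and 2 genes of the wider list were higher and 1 lower. Adjusted p-values in this fit were 0.0558 for Siglech, 0.0731 for Zbtb46, 0.0831 for Cd209a and 0.132 for Clec9a. Clec10a and Cd209a had 2 to 7 and 0 to 10 counts in aged libraries. With all libraries thinned to the smallest total, Clec9a lost its call (adjusted p = 0.0504), and Siglech, Cd209a and Zbtb46 were called.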
